A study of Mus musculus with 175 samples.

Results

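9 genes that stand outside the usual lists of red cell markers were followed through the 4 sorted progenitor populations of mouse fetal liver. They are Atp7b, Atp1b2, Blvrb, Smim1, Terf2ip, Cited4, Tnfaip2, Ssx2ip and Gm15915, out of 49585 annotated mouse features. They were picked by symbol for high read numbers in P2- MEPs or P2- CMPs, so their high levels there are a description and carry no test. All 9 passed the filter on low counts, a mean of at least 1 read over the retained cells, which 11860 genes passed.

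The study sorted single cells from embryonic day 14.5 livers in which human CD4 reports activity of the P2 promoter of Runx1, a transcription factor gene of blood development. The embryos came from a cross of C57BL/6 reporter males with wild type ICR females. Their reporter allele is written P2-GFP::P2-hCD4/+ in the genotype label and P1-GFP::P2-hCD4/+ in the protocol, and every population carried it. Megakaryocyte-erythroid progenitors (MEPs, Lin- SCA1- C-KIT+ CD16/32low CD34-) and common myeloid progenitors (CMPs, CD34+) were both gated as CD41- CD150+ and then divided by human CD4 into P2- and P2+ cells. No treatment was given. Livers from 2 litters went into 1 pool, each population is therefore 1 sample, and differences between populations were compared with counting error only. After quality filters 172 of 175 cells remained, namely 56 P2- MEPs and 47 P2+ MEPs besides 27 P2- CMPs and 42 P2+ CMPs, with 295064 to 1540631 reads on mouse genes per cell.

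A MEP on the way to a red cell raises KLF1 and GATA1, builds a heme and iron machinery and remodels its surface, which comes to carry blood group proteins. A megakaryocyte-biased progenitor keeps platelet genes instead, and a CMP still holds stem and granulocyte/monocyte genes. The 9 genes touch several of these themes. Atp7b pumps copper, Atp1b2 is a subunit of the sodium pump, Blvrb reduces biliverdin and flavins, and Smim1 carries the Vel blood group antigen. Terf2ip (RAP1) sits on telomeres, Cited4 binds the co-activators CBP and p300, Tnfaip2 is a relative of an exocyst subunit, and Ssx2ip is a protein of centriolar satellites and of afadin-bound junctions. Gm15915 is an antisense RNA with no named function.

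Summed markers followed the labels of the sorted populations, although single erythroid genes did not all do so. The 20 erythroid markers summed to 2907, 2016, 1314 and 727 counts per 1000000 reads on mouse genes (CPM). Here and wherever 4 levels stand in a row, the order is P2- MEPs first, next P2+ MEPs, then P2- CMPs and last P2+ CMPs. The 12 megakaryocytic markers summed to 107, 678, 615 and 717 CPM and the 8 stem and multipotent markers to 11.7, 130.1, 798 and 1159 CPM. Of 18 tested erythroid genes 8 were at least 2-fold lower and 2 (Alas2 and Car1) at least 2-fold higher in P2+ than in P2- MEPs. Over all tested genes these shares were 6.46% and 15.0%. The globin gene Hbb-bt was read in 18 of 56 thinned P2- MEPs and in 32 of 42 thinned P2+ CMPs, and over all cells its rho with the 9 genes lay between -0.54 (Gm15915) and 0.09 (Terf2ip). Macrophage markers summed to at most 2.50 CPM and lymphoid markers to at most 3.22 CPM in any population. A single P2+ CMP held 138 of the 167 Klf1 reads of its population, and 1 P2- CMP carries an MEP label in another field and had no Cd34 read and 236.8 CPM of Klf1. Ratios that move with either cell are also given without it.

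Promoter sequence was available for 8 of the 9 genes in RefSeq (build GRCm38.p6), from 250 bases before the annotated start to 50 after it, and Blvrb has 2 such starts. 5 genes are shown to cover the patterns of expression described below, so that the patterns can be set beside their sequences: Atp7b for genes nearly confined to P2- MEPs, Tnfaip2 for graded genes, Cited4 for genes at a like level in both MEP populations, Gm15915 for the gene that was highest in P2+ MEPs, and Terf2ip for the gene that did not follow the erythroid order. Capitals mark 2 kinds of word searched on both strands, a GATA word (AGATAA or else TGATAA, and the same ending in G, AGATAG or else TGATAG) and a CACC-type word (CCNCNCCC, where N is any base). Overlapping matches of the CACC-type word run together as 1 block of capitals.
Atp7b (chr8:22060025-22060324, minus strand): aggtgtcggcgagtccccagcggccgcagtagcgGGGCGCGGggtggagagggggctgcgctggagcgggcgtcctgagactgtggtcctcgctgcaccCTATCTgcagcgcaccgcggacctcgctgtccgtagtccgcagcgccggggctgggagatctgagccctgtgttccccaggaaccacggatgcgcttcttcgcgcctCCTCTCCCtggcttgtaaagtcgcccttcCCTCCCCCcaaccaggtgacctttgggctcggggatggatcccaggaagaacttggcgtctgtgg
Tnfaip2 (chr12:111442411-111442710, plus strand): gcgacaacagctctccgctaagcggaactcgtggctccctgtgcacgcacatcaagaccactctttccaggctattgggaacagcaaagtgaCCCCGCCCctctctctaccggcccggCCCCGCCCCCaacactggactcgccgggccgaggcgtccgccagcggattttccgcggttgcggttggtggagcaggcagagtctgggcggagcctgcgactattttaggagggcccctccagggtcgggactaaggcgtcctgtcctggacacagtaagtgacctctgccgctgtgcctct
Cited4 (chr4:120666313-120666612, plus strand): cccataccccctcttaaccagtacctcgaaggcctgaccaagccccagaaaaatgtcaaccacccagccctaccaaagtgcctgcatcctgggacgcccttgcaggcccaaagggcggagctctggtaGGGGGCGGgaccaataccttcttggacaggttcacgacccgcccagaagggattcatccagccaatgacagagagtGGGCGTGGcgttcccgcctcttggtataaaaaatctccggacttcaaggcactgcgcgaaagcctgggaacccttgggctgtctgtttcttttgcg
Gm15915 (chr10:93683273-93683572, minus strand): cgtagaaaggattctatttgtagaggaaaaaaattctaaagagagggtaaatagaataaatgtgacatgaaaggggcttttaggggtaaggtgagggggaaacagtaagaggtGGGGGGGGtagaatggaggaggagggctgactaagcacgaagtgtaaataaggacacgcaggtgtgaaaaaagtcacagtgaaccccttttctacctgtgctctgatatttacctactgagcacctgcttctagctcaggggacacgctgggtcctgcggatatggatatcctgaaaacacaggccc
Terf2ip (chr8:112011109-112011408, plus strand): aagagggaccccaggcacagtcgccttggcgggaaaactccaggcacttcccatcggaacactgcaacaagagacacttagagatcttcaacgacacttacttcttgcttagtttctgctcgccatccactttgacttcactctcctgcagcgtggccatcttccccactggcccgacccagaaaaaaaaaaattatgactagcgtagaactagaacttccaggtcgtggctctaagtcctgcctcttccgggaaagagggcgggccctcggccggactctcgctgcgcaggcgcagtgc

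Atp7b holds 1 GATA word, read as AGATAG on the opposite strand, and 3 CACC-type words. Tnfaip2 holds 3 CACC-type words, Cited4 holds 2 and Gm15915 holds 1, an unbroken run of G on this strand. Terf2ip holds neither kind. Among all 9 promoters of these genes 7 hold a CACC-type word, 2 hold a GATA word and 1 holds both. Over the 32851 tabulated promoters of the same length, 49.5% hold a CACC-type word, 29.8% a GATA word and 10.2% both. These are matches of letters and not sites of binding.

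The 9 genes showed 4 patterns. Atp7b and Atp1b2 were nearly confined to P2- MEPs. Tnfaip2 and Blvrb were highest in P2- MEPs, intermediate in P2+ MEPs and low in CMPs. Cited4, Smim1, Ssx2ip and Gm15915 were read in most cells of both MEP populations at levels within 2-fold of each other. Terf2ip was lowest in P2+ MEPs and at a like level in both CMP populations. Of the 9 genes, 8 had their highest pooled level in P2- MEPs, whereas Gm15915 had it in P2+ MEPs, so the name of an erythroid end does not cover Gm15915 within MEPs.

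**Figure D1:**
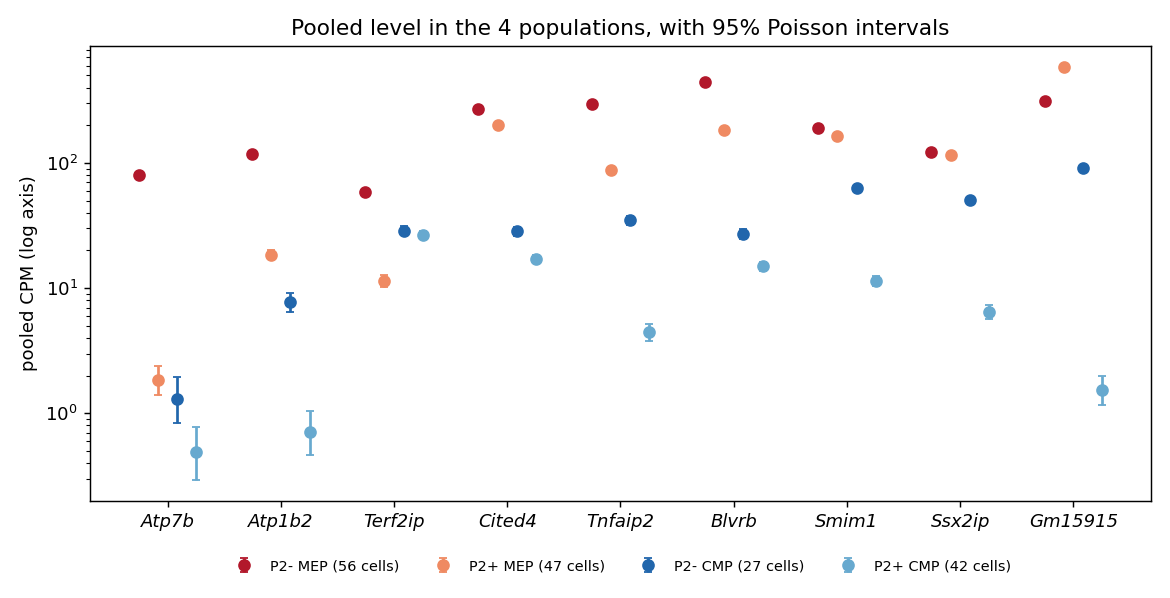
Pooled CPM of the 9 genes (log axis) in the 4 populations, where points are summed reads over summed reads on mouse genes and bars are exact 95% Poisson intervals that cover counting error only. Atp7b spans 80.9 to 0.495 CPM and Gm15915 580.3 to 1.54 CPM, while Terf2ip stays between 58.7 and 11.4 CPM.

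Between P2- and P2+ MEPs, 5 of the 9 genes were at least 2-fold lower in P2+ cells and none was 2-fold higher. Over all tested genes 6.46% were at least 2-fold lower in this comparison and 15.0% were higher. The median log2 ratio (P2+ over P2-) was -1.27 over the 9 genes and 0.05 over all tested genes. Between P2- and P2+ CMPs 6 of the 9 genes were at least 2-fold lower in P2+ cells, beside 9.33% of tested genes, and none was 2-fold higher, beside 9.79%, with a median log2 ratio of -2.47 against -0.02 for all tested genes. From P2- MEPs to P2- CMPs all 9 were at least 2-fold lower, beside 9.28% of tested genes (8 without the cell of conflicting label, where Terf2ip was just inside 2-fold), and none was higher, beside 22.5%. The median log2 ratio of all tested genes was 0.11 in this contrast, against -3.08 for the 9 genes, and with DESeq2 size factors it was 0.11 in P2+ over P2- MEPs. From P2+ MEPs to P2+ CMPs 8 were at least 2-fold lower, beside 10.3%, and Terf2ip was at least 2-fold higher, beside 17.0%. The contrasts share populations and the genes were chosen for their reads in P2- cells, so nothing is read from the difference to these shares.

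**Figure D2:**
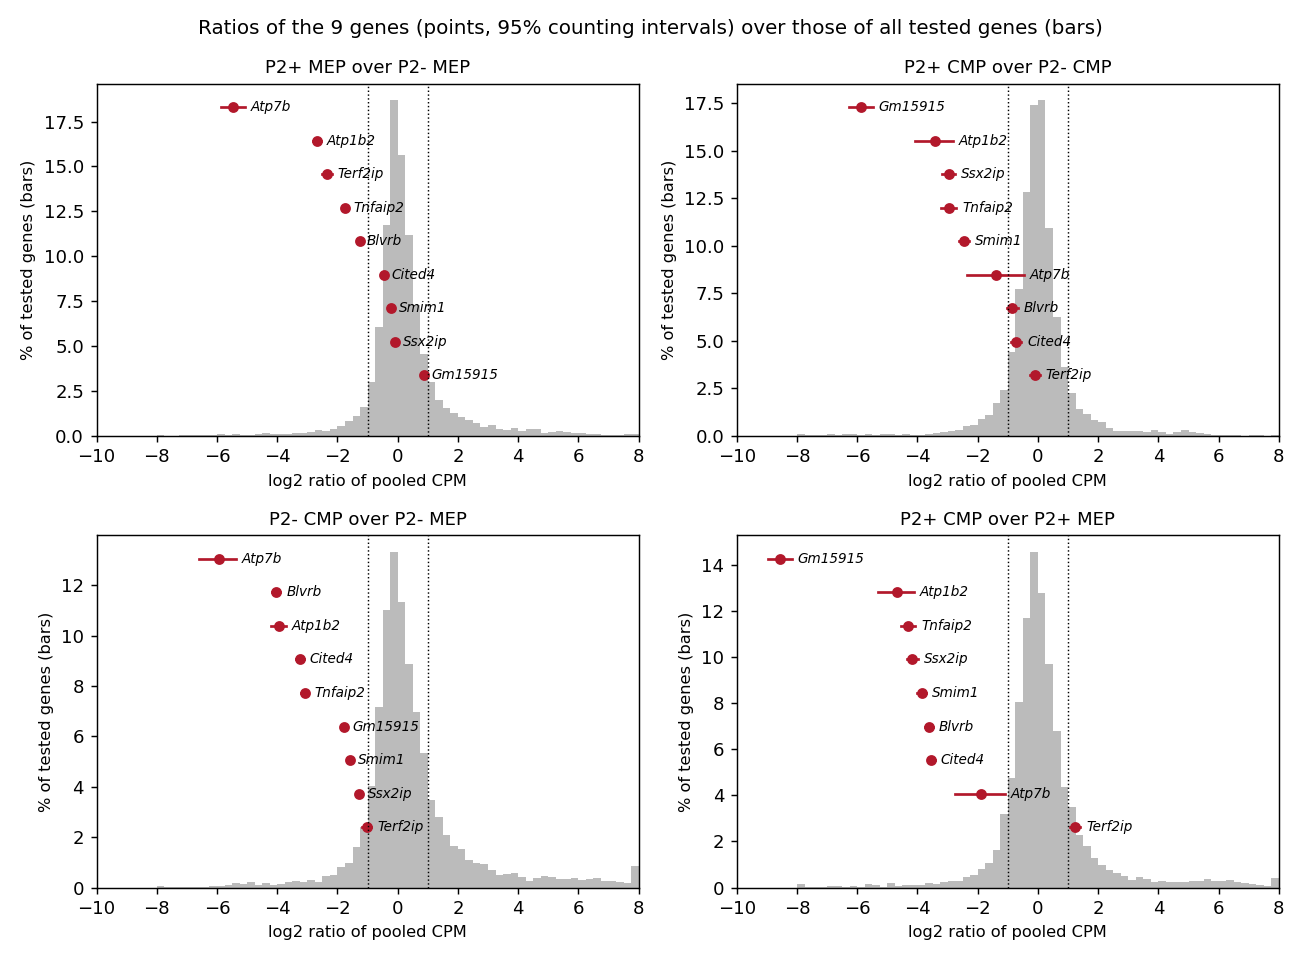
Log2 ratios of pooled CPM for the 9 genes (red points, with exact 95% intervals from counting alone) over the distribution for the 11860 tested genes (grey bars, percent of genes in bins of log2 ratio), in 4 contrasts, with dotted lines at 2-fold. Atp7b is farthest to the left in the MEP contrast at -5.46 and Gm15915 in the CMP contrast at -5.88, although Gm15915 lies to the right of 0 in MEPs at 0.89.

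Atp7b, the copper ATPase that is defective in Wilson disease and best known from hepatocytes, was the most restricted gene. Its pooled level was 80.9 CPM (77.7 to 84.1, exact 95% Poisson interval) in P2- MEPs, 1.84 CPM (1.39 to 2.37) in P2+ MEPs, 1.31 CPM (0.839 to 1.95) in P2- CMPs and 0.495 CPM (0.293 to 0.783) in P2+ CMPs. Reads were present in 44 of the 56 P2- MEPs, yet in only 3 P2+ MEPs, 1 P2- CMP and 1 P2+ CMP. Across P2- MEPs the cells ran from 0 through a median of 59.2 to 325.4 CPM. The other populations had a median of 0. With cells thinned to 100000 reads on mouse genes, so that depth is equal, the shares were 75.0% (61.6 to 85.6, Clopper-Pearson) of P2- MEPs and 6.38% (1.34 to 17.5) of P2+ MEPs.

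The log2 ratio of Atp7b was -5.46 (-5.86 to -5.08, exact conditional binomial interval) in P2+ over P2- MEPs, a 44.0-fold lower level. Of the 58 reads in P2+ MEPs, 62.1% came from 1 cell, and without the highest cell of each population the ratio was -6.73, while equal weight for every cell gave -4.69. Most of the difference was in the number of cells with a read, whose log2 ratio was -3.62, and less in the level of the cells that had one, whose log2 ratio was -1.07. In CMPs all Atp7b reads came from 1 cell on each side, so the ratio of -1.40 compares 2 cells. Hepatocyte markers, given here because Atp7b is a liver gene, summed to 11.99 CPM in P2- MEPs, 10.7 CPM in P2+ MEPs, 24.9 CPM in P2- CMPs and 13.6 CPM in P2+ CMPs. In P2- MEPs 4 of these 9 markers (Serpina1a, Fgb, Trf and Ahsg) were at 0 reads and the albumin gene Alb was at 4.48 CPM, from 6 thinned cells with a read. Alb had no read in P2+ MEPs or P2+ CMPs and stood at 12.7 CPM in P2- CMPs, from 1 thinned cell. The part of hepatocyte RNA in the Atp7b difference was not tested.

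The related copper pump Atp7a, defective in Menkes disease, was lowest where Atp7b was highest. It was at 0.359 CPM in P2- MEPs, 7.32 CPM in P2+ MEPs, 17.2 CPM in P2- CMPs and 9.44 CPM in P2+ CMPs. In P2+ over P2- MEPs the log2 ratio was 4.35 (3.48 to 5.37), but all 11 reads in P2- MEPs came from 1 cell, so its size rests on that cell. In thinned cells Atp7a was read in 1 P2- MEP, 6 P2+ MEPs, 8 P2- CMPs and 10 P2+ CMPs. That P2- MEP was the only cell with reads of both pumps. Per kilobase of exon, Atp7b in P2- MEPs stood at 12.4 CPM and Atp7a at its highest, in P2- CMPs, at 1.97 CPM.

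Of the 12 tested genes of a copper list, 3 were at least 2-fold lower and 1 was at least 2-fold higher in P2+ than in P2- MEPs. All tested genes had 6.46% and 15.0% in these directions, and the median log2 ratio of the list was -0.55. The lower genes were Atp7b, Slc31a2, a low-affinity copper transporter with 64 and 26 reads, and the metallothionein Mt2 at -1.64, and the higher gene was Atp7a. Of the Slc31a2 reads, 25 of the 26 in P2+ MEPs came from 1 cell and 93.8% of those in P2- MEPs from 3 cells, so its call rests on few cells. The uptake channel Slc31a1 (-0.39) and the copper chaperones Atox1 (-0.04) and Ccs (-0.04) stayed within 2-fold. Mt1, the other metallothionein of the list, stood at 1090.1, 619.9, 145 and 49.4 CPM.

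Atp1b2, the beta2 subunit of the Na,K-ATPase and also an adhesion molecule of glia, followed the same course as Atp7b with more remaining in P2+ MEPs. Pooled levels were 119 CPM (115 to 123) in P2- MEPs, 18.5 CPM (17.1 to 20.1) in P2+ MEPs, 7.69 CPM (6.47 to 9.07) in P2- CMPs and 0.715 CPM (0.467 to 1.05) in P2+ CMPs. Reads were found in 50, 11, 2 and 1 cells in that order. P2- MEPs ran from 0 through a median of 109 to 390 CPM, and no other population had a median above 0. The log2 ratio was -2.68 (-2.81 to -2.55) in MEPs and -3.43 (-4.09 to -2.82) in CMPs. The CMP value sets 26 reads of 1 cell against 141 reads of 2 cells, 77.3% of them from 1 cell. Without the highest cell of each population P2+ CMPs had no reads, and the ratio became a bound of -4.45.

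All 3 of the P2+ MEPs with Atp7b reads also had Atp1b2 reads, and the 1 P2- CMP with Atp7b was 1 of the 2 with Atp1b2. Spearman's rho between them was 0.71 over all 172 cells, 0.55 in P2+ MEPs and 0.29 in P2- MEPs. Among the 56 thinned cells of P2- MEPs, 42 had Atp7b, 49 had Atp1b2 and 38 had both. In P2+ CMPs the 1 cell with Atp7b was not the 1 cell with Atp1b2.

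Other genes of the sodium pump did not share this course. The subunit Atp1b3 was at 208.2, 239.9, 268.6 and 284.8 CPM, and Atp1b1 had at most 20 reads in any of them. Per kilobase of exon, Atp1b2 in P2- MEPs stood at 29.1 CPM and Atp1b3 at 87.1 CPM. Fxyd5, a modulator of the pump, ran the other way, from 6.37 CPM in P2- MEPs to 62.4 CPM in P2+ MEPs, 226.02 CPM in P2- CMPs and 340.3 CPM in P2+ CMPs. Of the 5 tested genes of the Na,K-ATPase list, 1 was at least 2-fold lower (Atp1b2) and 1 at least 2-fold higher (Fxyd5) in P2+ MEPs. The median log2 ratio was -0.07, and over all tested genes 6.46% were lower and 15.0% higher.

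**Figure D3:**
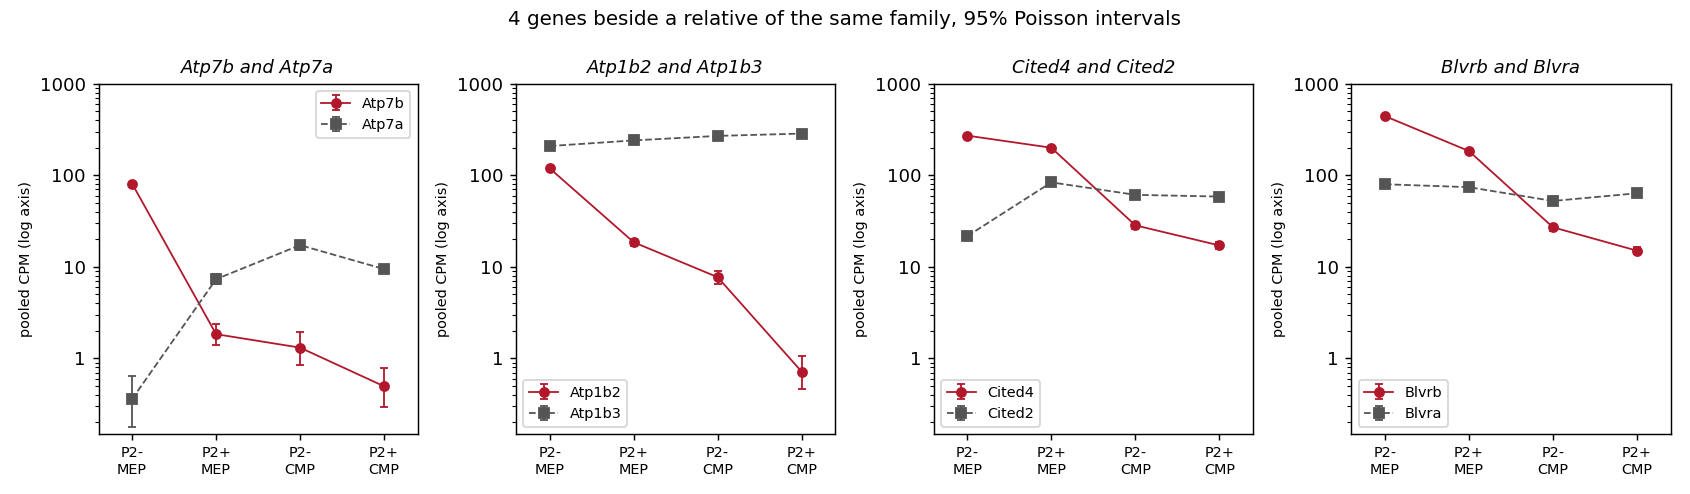
Pooled CPM (log axis, exact 95% Poisson intervals) of Atp7b, Atp1b2, Cited4 and Blvrb (red circles) beside a relative of the same family (grey squares) in the 4 populations. Atp7a and Cited2 are lowest where Atp7b and Cited4 are highest, while Atp1b3 and Blvra change by less than 2-fold.

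Blvrb, biliverdin reductase B, an enzyme abundant in red cells that reduces biliverdin IX-beta and flavins, was the most read of the 9 genes in P2- MEPs. It stood at 442 CPM (434 to 449) in P2- MEPs, 184 CPM (179 to 188) in P2+ MEPs, 27.0 CPM (24.7 to 29.5) in P2- CMPs and 15.0 CPM (13.8 to 16.3) in P2+ CMPs. All 56 P2- MEPs had reads, from 122 through a median of 415 to 826 CPM. P2+ MEPs ran from 0 through 149 to 579 CPM, with 43 of 47 cells positive, so the 2 MEP populations overlapped over most of the range of P2+ MEPs.

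The log2 ratio of Blvrb was -1.27 (-1.31 to -1.22) in MEPs. Here the share of positive cells hardly differed, with a log2 ratio of -0.13, and the level of positive cells carried the difference, with a log2 ratio of -1.24. In CMPs the ratio was -0.85 (-1.03 to -0.67), below the 2-fold size, and it passed 2-fold with equal weight for every cell (-1.15). The 3 genes most like Blvrb over all 172 cells, among the 8038 genes that 25% or more of the cells contained, were Mt1 (rho 0.83), Klf1 (0.80) and Alad (0.80), an enzyme of heme synthesis. Within P2- MEPs these values fell to between 0.37 and 0.44, below the values over all cells, which also span the populations.

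Blvra, which reduces the main biliverdin of heme breakdown, was nearly level, at 79.7, 74.0, 52.3 and 63.5 CPM. In a list of 6 genes of heme breakdown and methemoglobin reduction, Blvrb and Cyb5r3, the methemoglobin reductase, were at least 2-fold lower in P2+ MEPs. The share of all tested genes was 6.46%. The pooled level of Cyb5r3 was 168 CPM in P2- against 74.1 CPM in P2+ MEPs, which gives -1.18 (-1.25 to -1.11) as its log2 ratio. Hmox1, Hmox2, Blvra and Cyb5a stayed within 2-fold, and the median log2 ratio of the list was -0.15.

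Tnfaip2, a tumour necrosis factor-induced protein related to exocyst subunit EXOC3, was in every P2- MEP, from 45.5 through a median of 271.8 to 817 CPM. Its pooled level was 294.5 CPM (288.5 to 300.7) in P2- MEPs, 88.5 CPM (85.3 to 91.9) in P2+ MEPs, 34.8 CPM (32.1 to 37.6) in P2- CMPs and 4.46 CPM (3.797 to 5.20) in P2+ CMPs. P2+ MEPs ran from 0 through 26.7 to 387 CPM, and 30 of 47 had a read. The log2 ratio was -1.73 (-1.80 to -1.67) in MEPs and -2.96 (-3.22 to -2.71) in CMPs. The CMP ratio was -3.81 without the P2+ CMP rich in Klf1, which held 74 of the 162 Tnfaip2 reads. On the other side 1 P2- CMP held 48.0% of the reads, and without the highest cell of each population the ratio was -2.92.

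The relation of Tnfaip2 to erythroid genes within P2+ MEPs varied from gene to gene. Its rho was 0.44 with Klf1, 0.72 with the heme synthesis gene Cpox and -0.49 with Gp9, a platelet receptor gene. It was 0.28 with Epor and near 0 with Gata1 (-0.08), Car1 (0.06) and Hbb-bt (0.08). Cpox is the gene of highest rho with Tnfaip2 over all cells and was picked for that. Of the 25 thinned P2+ MEPs with Gp9 reads 10 also had Tnfaip2 reads, against 30 of all 47. Over all cells the genes most like Tnfaip2 were Cpox (rho 0.82), Ermap (0.78) and Klf1 (0.77). These values are descriptions of cells from 1 pool that share library and depth. Of 12 tested genes of the exocyst list, 1 (Tnfaip2) was at least 2-fold lower and 2 (Exoc3l and Exoc3l2) at least 2-fold higher in P2+ MEPs. Beside 6.46% lower and 15.0% higher over all tested genes, nothing is read from these counts. The median log2 ratio of the list was 0.14. The call of Exoc3l rests on 17 and 40 reads, 11 and 20 of them from 1 cell each. The 8 subunits of the complex itself that were named EXOC1 to EXOC8 stayed within 2-fold. Exoc3l2, a closer relative of Tnfaip2, ran the other way from it, at 5.85 CPM in P2- MEPs, 25.2 CPM in P2+ MEPs, 28.4 CPM in P2- CMPs and 32.7 CPM in P2+ CMPs.

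**Figure D4:**
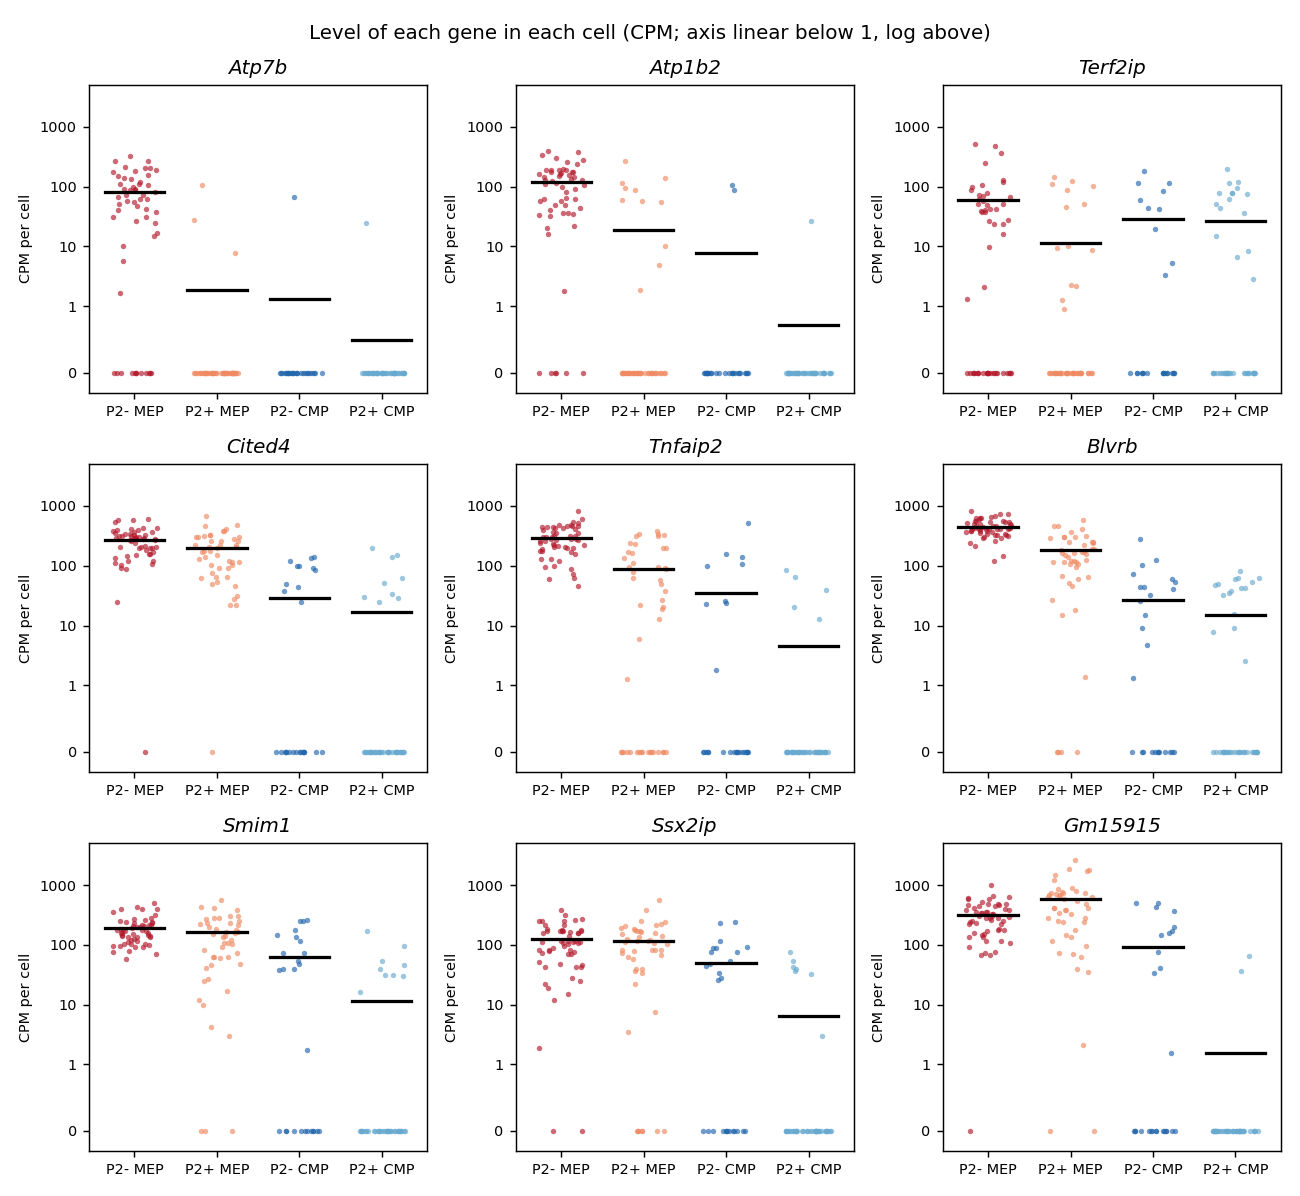
CPM of each gene in each of the 172 cells (points; the axis is linear below 1 CPM and logarithmic above) by population, with the pooled CPM as a black line. Tnfaip2, Blvrb and Smim1 have no P2- MEP at 0, whereas Atp7b is at 0 in all P2+ MEPs but 3, and the CMP populations have a minority of positive cells for most genes.

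Cited4 was nearly as high in P2+ as in P2- MEPs. It was at 270.4 CPM (264.6 to 276.3) in P2- MEPs and 199.5 CPM (195 to 204) in P2+ MEPs, then at 28.4 CPM (26.0 to 30.9) in P2- CMPs and 17.1 CPM (15.8 to 18.5) in P2+ CMPs. All but 1 cell in each MEP population had reads (55 and 46 cells), with medians of 280.7 and 176 CPM and highest values of 593 and 691 CPM. The log2 ratio was -0.44 (-0.49 to -0.39) in MEPs and -3.25 (-3.38 to -3.13) in P2- CMPs over P2- MEPs. In P2+ over P2- CMPs it was -0.73 (-0.90 to -0.56), but 169 of the 622 reads in P2+ CMPs came from the Klf1-rich cell, and without it the ratio was -1.15.

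The related co-regulator Cited2 was lowest in P2- MEPs, at 21.6 CPM, and stood at 83.5 CPM in P2+ MEPs, 61.0 CPM in P2- CMPs and 58.4 CPM in P2+ CMPs. Its log2 ratio in MEPs was 1.95 (1.83 to 2.07). Across the cells of a MEP population Cited2 and Cited4 were barely related, with a rho of -0.07 in P2- and -0.04 in P2+ MEPs. The co-activators they bind, Crebbp (0.01) and Ep300 (0.25), kept their level between MEP populations, given as log2 ratios. Only Cited2 of 4 tested genes of this list passed 2-fold, with a median log2 ratio of 0.13. Among all tested genes 15.0% were at least 2-fold higher. Cited1 had 34 reads in P2- MEPs and none in the other populations.

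Smim1 was in every P2- MEP, from 58.1 through a median of 169 to 503 CPM, and in 44 of 47 P2+ MEPs, with a median of 119.8 CPM. Pooled levels were 191 CPM (186 to 196), 166 CPM (161 to 170.2), 63.2 CPM (59.6 to 66.9) and 11.4 CPM (10.3 to 12.6). The MEP log2 ratio was -0.21 (-0.26 to -0.15) and the CMP log2 ratio -2.47 (-2.63 to -2.30), or -3.07 without the Klf1-rich P2+ CMP. Within P2+ MEPs, Smim1 had a rho of 0.42 with Gp9 and 0.01 with Klf1, an order opposite to that of Tnfaip2. The exons of Smim1 share 18.1% of their bases with Lrrc47 on the other strand, and the counting ignored strand. Lrrc47 itself was at 17.6, 9.79, 9.60 and 19.5 CPM, below Smim1 in 3 populations but above it in P2+ CMPs. HTSeq counted reads on exons of both genes for neither, so reads on the shared bases are missing from Smim1. How far this lowered the Smim1 level of P2+ CMPs or moved the CMP ratio was not tested.

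Among 11 tested blood group carriers, 5 were at least 2-fold lower in P2+ than in P2- MEPs and none was 2-fold higher, with a median log2 ratio of -0.90. The shares over all tested genes were 6.46% and 15.0%. Ermap, Rhag, Rhd and Aqp1 were among the 5 lower carriers. Smim1 was not, nor was the urea transporter Slc14a1, the carrier of the Kidd antigens, at 162 CPM in P2- and 175 CPM in P2+ MEPs. Rhag, a partner of the Rh antigens, stood at 132 CPM in P2- against 21.3 CPM in P2+ MEPs, and Rhd at 57.6 against 5.42 CPM. In CMPs Smim1 and Slc14a1 were often read in the same cells, with 10 of the 14 P2- CMPs and all 8 P2+ CMPs with Smim1 reads also having Slc14a1 reads in thinned cells.

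Ssx2ip was the most even of the 9 genes between the MEP populations. Its pooled level was 123 CPM (119.5 to 127) in P2- MEPs, 116 CPM (112 to 119.4) in P2+ MEPs, 50.3 CPM (47.1 to 53.6) in P2- CMPs and 6.44 CPM (5.64 to 7.32) in P2+ CMPs. Cells ran from 0 through 110.3 to 388 CPM in P2- MEPs and from 0 through 105 to 560.1 CPM in P2+ MEPs, so the populations overlapped over most of their ranges. The log2 ratio was -0.10 (-0.16 to -0.03) in MEPs and -2.97 (-3.18 to -2.76) in CMPs. The partners fixed for it went no common way. Afadin (Afdn) and Nectin1 were at least 2-fold higher in P2+ MEPs (log2 ratios 1.797 and 2.52), beside 15.0% of all tested genes. Nectin2, Bbs4, Wrap73, Pcm1 and Cep290 stayed within 2-fold, and the median over 8 tested genes of the list was -0.05.

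Gm15915 was the only one of the 9 genes that was higher in P2+ than in P2- MEPs. It stood at 313.9 CPM (307.7 to 320.3) in P2- MEPs, 580.3 CPM (572 to 589) in P2+ MEPs, 90.6 CPM (86.3 to 95.1) in P2- CMPs and 1.54 CPM (1.16 to 2.001) in P2+ CMPs. P2- MEPs ran from 0 through a median of 287.4 to 1001 CPM, and P2+ MEPs from 0 through 413 to 2674 CPM. Cells with a read numbered 55 among P2- MEPs and 45 among P2+ MEPs, so that the log2 ratio of 0.89 (0.85 to 0.92) lay in the level of positive cells (0.91) and not in their number (-0.04). The populations overlapped widely, and the quartiles of P2+ MEPs, 164 and 739 CPM, enclosed the P2- MEP median.

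In CMPs Gm15915 had the steepest difference of the set. It was read in 12 of 27 P2- CMPs and 2 of 42 P2+ CMPs, and the log2 ratio was -5.88 (-6.29 to -5.49), a 58.8-fold lower level in P2+ CMPs. Of the 56 reads in P2+ CMPs, 31 came from the Klf1-rich cell, and without that cell the ratio was -7.01. The P2- CMP with the conflicting label stood at 434 CPM of Gm15915, and without it the CMP ratio was -5.67 and the ratio of P2- CMPs over P2- MEPs went from -1.79 to -2.01. Without the Klf1-rich cell the pooled level in P2+ CMPs was 0.704 CPM. Of the 11 P2- CMPs with Gm15915 reads in thinned cells, 9 also had Klf1 reads and 6 had Cd34 reads, whereas 22 of all 27 had Cd34 reads. In P2- CMPs the rho of Gm15915 with Klf1 was 0.75 and with Cd34 -0.65. These counts and rho values include the cell of conflicting label, which had Klf1 reads and no Cd34 read.

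Gm15915 lies on the minus strand at chr10:93674218-93683322 (GRCm38, GENCODE M21), inside the span of Ntn4 on the plus strand, with 908 exon bases in 6 exon blocks. It shares no exon base with Ntn4, a laminin-related gene that had 1.54 CPM in P2- MEPs, 0.792 CPM in P2+ MEPs and no read in either CMP population. Counting ignored strand, so reads from unannotated Ntn4 sequence cannot be told apart from reads of Gm15915 there. Of the other 8 genes, Cited4 and Blvrb had a negative rho with Gm15915 in P2- MEPs and a positive one in P2+ MEPs. Its rho with Cited4 was -0.35 in P2- MEPs and 0.59 in P2+ MEPs, and with Blvrb it was -0.38 and 0.36. With Smim1 it was negative in both, -0.43 in P2- MEPs and -0.07 in P2+ MEPs, and with Atp7b too, at -0.31 and -0.11.

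**Figure D5:**
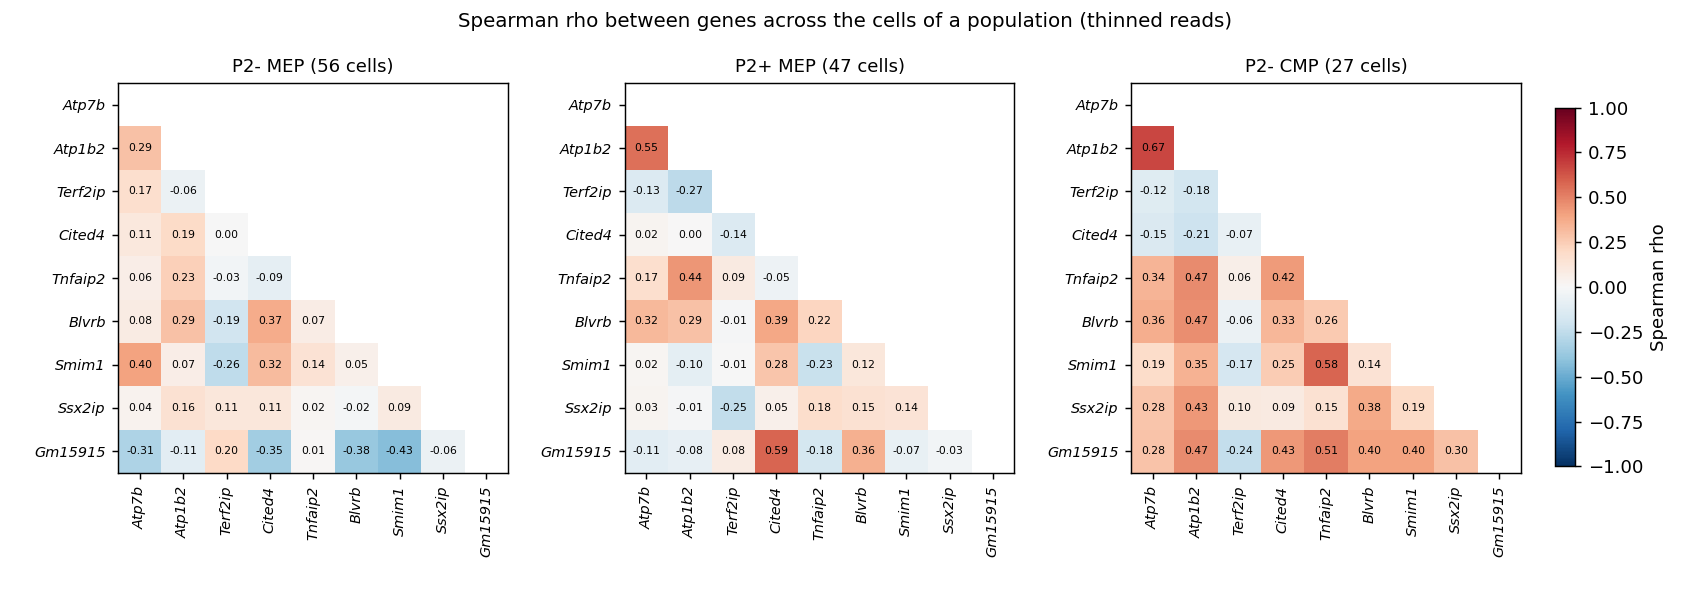
Spearman's rho between each pair of the 9 genes across the cells of P2- MEPs, P2+ MEPs and P2- CMPs, from reads of cells thinned to 100000 reads (red positive, blue negative; the value is printed in each box). The bottom row of each panel is Gm15915, whose rho with Cited4 is -0.35, 0.59 and 0.43.

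Terf2ip, the RAP1 protein that joins the telomere complex shelterin through TRF2 and that also acts outside telomeres, did not follow the erythroid order, so the name of an erythroid end does not cover it. Its pooled level was 58.7 CPM (56.1 to 61.5) in P2- MEPs, 11.4 CPM (10.3 to 12.7) in P2+ MEPs, 28.8 CPM (26.4 to 31.4) in P2- CMPs and 26.8 CPM (25.2 to 28.6) in P2+ CMPs. It was read in 32, 14, 10 and 16 cells in that order, a minority in every population but P2- MEPs. The P2- MEPs ran from 0 through a median of 19.7 to 513 CPM, and 3 of the 56 cells held 47.9% of the reads, so the level rests on few cells.

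The log2 ratio of Terf2ip was -2.36 (-2.53 to -2.20) in P2+ over P2- MEPs and -1.87 with equal weight for every cell. In CMPs it was -0.10 (-0.26 to 0.05), and its sign turned in 4 of 8 alternatives, between -0.15 and 0.14. From P2- MEPs to P2- CMPs it was -1.03, at the edge of 2-fold, and -0.98 without the cell of conflicting label. From P2+ MEPs to P2+ CMPs it was 1.23 (1.05 to 1.41), but equal weight for every cell gave 0.76, inside 2-fold. Over all cells the rho of Terf2ip with Klf1 was 0.09, against 0.55 to 0.80 for the other 8 genes. The values over all cells also reflect the population levels for which the genes were chosen. Within P2- MEPs the rho with Klf1 was 0.04 for Terf2ip, inside the range of the other 8 genes, -0.11 (Tnfaip2) to 0.44 (Blvrb). Over all cells the highest rho of any gene with Terf2ip was 0.33 (3110040N11Rik). Of the 7 shelterin genes only Terf2ip passed 2-fold between MEP populations, beside 6.46% of all tested genes lower and 15.0% higher. Its partner Terf2 was at 37.3 CPM in P2- and 41.6 CPM in P2+ MEPs, and the median log2 ratio of the 7 genes was 0.07.

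Counted together, the 9 genes followed the order of the populations. A thinned P2- MEP had reads of a median of 8 of the 9 genes (range 6 to 9), a P2+ MEP of 6 (3 to 8), a P2- CMP of 3 (0 to 7) and a P2+ CMP of 1 (0 to 6). All 9 were read in 22 of 56 P2- MEPs and in no cell of the other populations. Of the P2- CMPs 7 had reads of 5 or more, and of the P2+ CMPs 1 had. The genes were chosen for this pattern, so these counts describe the cells and test nothing.

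Among P2- CMPs most of these genes were read in the cells that also had Klf1. Klf1 reads were found in 13 of the 27 thinned cells, and these held all 8 cells with Tnfaip2, 9 of the 10 with Cited4, 9 of the 11 with Gm15915 and 11 of the 14 with Smim1. The overlap was smaller for Blvrb (8 of 12 cells) and Ssx2ip (8 of 14). Terf2ip stood apart, with 3 of its 8 cells having Klf1 reads and all 8 having Cd34 reads. The P2- CMP of conflicting label is included, with reads of Klf1, Smim1 and Gm15915 but none of Tnfaip2, Cited4 or Cd34. These are descriptions of cells from 1 pool.

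Within single populations the 9 genes had lower median rho values than over all cells. The median rho over 36 pairs was 0.07, 0.03, 0.28 and -0.02 in the 4 populations, against 0.52 over all 172 cells. In P2- CMPs 28 of the 36 pairs were above 0. The highest rho there were Atp7b with Atp1b2 (0.67), which rests on 1 cell with both, and Tnfaip2 with Smim1 (0.58). In P2- MEPs, where every cell held at least 6 of the genes, the highest was Atp7b with Smim1 (0.40), and in P2+ MEPs it was Cited4 with Gm15915 (0.59). The highest of any population was Cited4 with Smim1 in P2+ CMPs (0.81). The points share library, depth and pool, and many of the counts are low.

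The remaining positions in GRCm38 (GENCODE M21) were as follows. Atp7b lies at chr8:21992785-22060305 on the minus strand and Terf2ip at chr8:112011398-112020528 on the plus strand. Atp1b2 lies at chr11:69599736-69605942 (minus), Tnfaip2 at chr12:111442469-111455018 (plus), Blvrb at chr7:27447978-27466144 (plus) and Ssx2ip at chr3:146404642-146440144 (plus). Cited4, a gene of 1 exon block, lies at chr4:120666572-120667820 (plus), and Smim1 at chr4:154020470-154026230 (minus). All are protein coding apart from Gm15915. Tnfaip2 shares 6.30% of its exon bases with the antisense gene Gm40578 and Terf2ip 2.18% with Gm6793, both on the other strand, and apart from Smim1, described with Lrrc47, the other genes share none.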

How the data were processed

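Reads of single cells were made by a modified Smart-Seq2 protocol without molecular identifiers. Before deposit, the authors trimmed reads with Trimmomatic 0.36, aligned them with STAR 2.4.2a to GRCm38 plus ERCC sequences and counted them on GENCODE M12 exons with HTSeq 0.6.1p1 without regard to strand. The deposited values are raw read counts of every gene in each cell, together with the percent of unmapped reads per cell. Positions come from the later GENCODE release M21. Groups come from the sample labels, whose low and high CMPs were read as P2- and P2+.

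Cells with fewer than 250000 reads, over 25% unmapped reads or over 15% ERCC reads were left out. Pooled CPM is the sum of a gene's reads in a population over the sum of all reads on mouse genes. For ratios, 3 reads stood in for 0, and no ratio was taken with both sides at or under 3 reads. A call is a 2-fold ratio. All intervals are at 95%, and PCR copies are not independent molecules, so they cover counting error only. With 1 pool per population no test was made. HTSeq tallied 25.6% of unique reads as ambiguous between genes and 7.40% as on no gene, counted neither kind for any gene, and its 5 tally rows stayed out of totals. No doublet caller was run, and 2 cells had at least 10 reads of both Xist and Y-linked genes. Thinning left out no cell. Code was tested on simulated data.

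Members and gene lists were chosen with earlier results of these data known. Named genes are the 9 members, the list and marker genes and the 3 genes of highest rho with each member. Lrrc47 and Ntn4 were added for their overlap after values were seen. Alternatives were equal weight for cells, DESeq2 1.42.0 (poscounts) or edgeR 4.0.16 (TMM) factors, a denominator without mitochondrial genes and Rn18s-rs5, every deposited cell, leaving out single cells, other filters on low counts and other thinning depths. Python 3.11.15, scipy 1.17.1 and R 4.3.3 were used. Some genes of the lists are not reported here by name.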

Additional observations from a re-analysis of the deposited data

Results flagged for a closer look

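Gm15915 had ratios of opposite direction in the 2 progenitor compartments. Between P2+ and P2- cells the log2 ratio was 0.89 in MEPs and -5.88 in CMPs, with pooled levels of 313.9 and 580.3 CPM in P2- and P2+ MEPs and of 90.6 and 1.54 CPM in P2- and P2+ CMPs. The difference between the compartments was not tested, since each population is 1 pool. Over 8 alternatives the MEP ratio lay between 0.85 and 0.94 and the CMP ratio between -7.01 and -5.25.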

How the results depend on the processing

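The 36 log2 ratios of the 9 genes (4 contrasts) were recomputed under 8 alternatives, with no value for Atp7b in CMPs in one of them, since no reads were left there without the highest cell. All but 4 values kept the sign and all but 7 their side of 2-fold lower. The 4 were those of Terf2ip in CMPs, and the changes of side were those of Blvrb and Cited4 in CMPs and of Terf2ip in P2- CMPs over P2- MEPs. The causes were not tested. The number of the 9 genes at least 2-fold lower stayed at 5 in MEPs and went from 6 to at most 7 in CMPs. In P2- CMPs over P2- MEPs it went from 9 to 8 without the cell of conflicting label and with the denominator without mitochondrial genes and Rn18s-rs5. The background share in MEPs, 6.46%, was 12% over every gene with a read and 2.68% over genes read in at least 25% of cells, and in CMPs the 9.33% was 4.48% under the latter filter. Ratios that rest on few cells moved by over 1.5 times. Without the highest cell of each population, the P2- CMP over P2- MEP ratio went from -5.95 to a bound of -8.81 for Atp7b (-4.99 with equal weight for cells), from -3.95 to -5.95 for Atp1b2 and from -3.08 to -3.92 for Tnfaip2. The P2+ over P2- CMP ratio of Atp1b2 went from -3.43 to a bound of -4.45, and the P2+ CMP over P2+ MEP ratio of that gene from -4.70 to a bound of -7.47. Without the Klf1-rich P2+ CMP the P2+ CMP over P2+ MEP ratio went from -8.56 to -9.69 for Gm15915, and with edgeR TMM factors to -7.77. Leaving out the same cell took this ratio from -4.31 to -5.16 for Tnfaip2 and from -3.86 to -4.46 for Smim1. For Cited4 it went, by less, from -3.54 to -3.97. No paired analysis was possible because all populations came from 1 pool, with no replicate pools to pair.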
